A study of Homo sapiens with 12 samples.

Results

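From 60675 genes in each library, 9 genes that restrain entry into the cell cycle were followed across the 6 groups of the series: the CIP/KIP inhibitors CDKN1B and CDKN1C, the INK4 inhibitors CDKN2A, CDKN2B, CDKN2C and CDKN2D, and the pocket protein genes RB1, RBL1 and RBL2. They were chosen by name and matched by symbol to 9 gene identifiers, and all 9 had enough reads to be tested in every comparison. CDKN1A, the third CIP/KIP gene, was not among them.

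The 12 libraries came, 2 per group, from the human prostate cancer line LNCaP, which depends on androgen, and its castration-resistant derivative LNCaP:C4-2 (C4-2 below). Every culture, controls included, was grown in charcoal-stripped serum with the synthetic androgen R1881 at 1 nM and was treated for 72 h. C4-2 cells received R1881 alone, R1881 with namoline (an inhibitor of the lysine demethylase KDM1A, 50 µM), R1881 with TCE-5002 (an inhibitor of the lysine demethylase KDM7A), or R1881 with both inhibitors, called the combination. LNCaP cells received R1881 alone or the combination. By the methods, the cultures with R1881 alone also received the DMSO vehicle, at the same final concentration as the treated ones. TCE-5002 is listed at 100 µM in the series text and at a lower dose in the methods, which leaves its dose here uncertain. The paper states that TCE-5002 also targets the demethylases KDM7B (PHF8) and KDM2A, so its effects cannot be assigned to KDM7A alone. The methods call the 2 samples of a group biological replicates, and the labels do not say whether these were separate cultures, so the p-values measure the spread between these samples.

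Depth ran from 14791602 to 20690819 counted fragments per library. The C4-2 TCE-5002 libraries stood farthest apart as replicates, at a chi-square per gene of 27.9 against 3.61 to 9.76 in the other groups. In the file of LNCaP combination replicate 1 the header of the count column names namoline but not TCE-5002, whereas its label says both, so each LNCaP combination result is also given without that library. The libraries labelled LNCaP went in part against the luminal identity of that line. Their summed level of 12 prostate luminal markers was 1022 to 1104 CPM (counts scaled to the library total with TMM factors) with R1881 alone, against 5136 to 5232 CPM in C4-2, and CDH1 (E-cadherin) stood at 42.1 against 978 CPM. The summed level of 7 mesenchymal markers was 918 to 1014 CPM against 32.2 to 33.1 CPM, with 7 of 7 markers at or above 1 CPM against 3 of 7. All 12 luminal markers reached 1 CPM in both. Of these only KLK3, the androgen-regulated gene of prostate-specific antigen, was higher in the libraries labelled LNCaP, at 397 and 355 CPM against 206 and 228 CPM. The summed level of 5 neuroendocrine markers was 75.0 to 77.9 CPM against 8.26 to 8.58 CPM. None of 4 basal markers reached 1 CPM in any group. Since each line was a set of libraries of its own, line and batch cannot be told apart, and "libraries labelled LNCaP" is used below for these 4 libraries.

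CDK inhibitors and pocket proteins act in series. D-type cyclins with CDK4 or CDK6, and then cyclin E with CDK2, phosphorylate the pocket proteins RB, p107 and p130, which are encoded by RB1, RBL1 and RBL2 and which otherwise bind E2F transcription factors and keep the genes of DNA synthesis silent. INK4 proteins bind CDK4 and CDK6 alone, whereas CIP/KIP proteins such as p27 (CDKN1B) and p57 (CDKN1C) bind cyclin-CDK complexes more broadly. RB mainly restrains the activating E2F proteins, p130 with E2F4 and the MuvB core forms the DREAM repressor of resting cells, and p107 is itself made from an E2F-driven gene in cycling cells. In prostate epithelium p27 is known as a brake that is often lowered in cancer.

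Promoter sequences from RefSeq (GRCh38.p14, 250 bases before to 50 bases after each annotated start) were found for 8 of the 9 genes, the RB1 entry being an internal start within the gene, and 4 are shown: the 2 windows that hold E2F matches (RBL1 and CDKN2D), that of CDKN1B, the member with the most exon fragments per kb in C4-2, and that of RBL2, the paralogue of RBL1. Capitals mark matches, on either strand, to the E2F motif TTTNNCGC, the cell cycle homology region TTTGAA, the CCAAT box CCAAT or the hexamer AGAACA of androgen response elements. The RBL1 entry lies at chr20:37095948-37096247 on the minus strand, the CDKN2D entry at chr19:10568930-10569229 on the minus strand, the CDKN1B entry at chr12:12717118-12717417 on the plus strand and the first of 2 RBL2 entries at chr16:53434221-53434520 on the plus strand, each written 5′ to 3′ along its gene.
RBL1: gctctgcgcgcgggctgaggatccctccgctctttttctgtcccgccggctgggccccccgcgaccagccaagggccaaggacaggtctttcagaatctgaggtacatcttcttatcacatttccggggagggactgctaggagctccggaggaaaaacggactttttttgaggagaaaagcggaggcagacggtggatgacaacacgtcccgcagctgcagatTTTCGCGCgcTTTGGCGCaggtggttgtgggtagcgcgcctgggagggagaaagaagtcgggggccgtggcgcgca
CDKN2D: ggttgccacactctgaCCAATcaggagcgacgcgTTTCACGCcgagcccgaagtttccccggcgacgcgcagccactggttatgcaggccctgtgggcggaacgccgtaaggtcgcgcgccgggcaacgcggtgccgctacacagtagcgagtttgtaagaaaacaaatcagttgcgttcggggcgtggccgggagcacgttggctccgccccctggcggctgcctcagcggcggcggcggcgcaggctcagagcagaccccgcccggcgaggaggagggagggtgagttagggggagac
CDKN1B: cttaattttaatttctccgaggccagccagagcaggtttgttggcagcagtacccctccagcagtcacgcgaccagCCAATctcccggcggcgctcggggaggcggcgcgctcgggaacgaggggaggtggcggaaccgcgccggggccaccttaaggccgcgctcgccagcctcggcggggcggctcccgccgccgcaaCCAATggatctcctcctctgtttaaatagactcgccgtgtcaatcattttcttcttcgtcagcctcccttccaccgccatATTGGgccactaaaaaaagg
RBL2: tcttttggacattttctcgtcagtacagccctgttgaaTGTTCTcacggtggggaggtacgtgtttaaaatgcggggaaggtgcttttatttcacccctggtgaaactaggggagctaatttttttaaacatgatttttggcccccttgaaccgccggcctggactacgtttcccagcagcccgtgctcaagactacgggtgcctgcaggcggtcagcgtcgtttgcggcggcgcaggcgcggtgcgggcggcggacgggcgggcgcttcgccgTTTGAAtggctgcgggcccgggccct

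The RBL1 window held 2 E2F matches, TTTCGCGC beginning at position -26 and TTTGGCGC beginning at -16 from the annotated start. The CDKN2D window held 1 E2F match, at -216, and a CCAAT box. The CDKN1B window held 3 CCAAT boxes and no E2F match, and the RBL2 window held TTTGAA at 24 bases past the start and an AGAACA match, read on the other strand, at -212. Of all 35116 promoters of the same length, 6.89% held TTTNNCGC, 15.2% TTTGAA, 34.6% CCAAT and 14.8% AGAACA. A match describes the letters only.

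Per kilobase of exons, the scale on which genes can be compared, the 9 genes were ordered differently in the 2 lines under R1881 alone. In C4-2 CDKN1B stood highest at 38.77 ± 0.525 CPM per kb (mean ± SD, n = 2 here and below), followed by RBL2 at 13.8 ± 0.401 and RB1 at 11.1 ± 0.503 CPM per kb. CDKN2D (4.14 ± 0.206), CDKN1C (2.83 ± 0.873), RBL1 (2.65 ± 0.0900) and CDKN2C (2.59 ± 0.229 CPM per kb) came next, and the last 3 lay within their SDs of one another. CDKN2B at 0.591 ± 0.111 and CDKN2A at 0.256 ± 0.128 CPM per kb were lowest. In the libraries labelled LNCaP, CDKN2A was highest at 25.2 ± 3.12 CPM per kb, and CDKN2C (21.8 ± 2.20) and CDKN1B (20.8 ± 1.34 CPM per kb) lay within 2 SDs of it. RBL1 followed at 17.3 ± 1.05, RB1 at 12.8 ± 2.09, RBL2 at 9.73 ± 0.173, CDKN2D at 6.55 ± 0.502, CDKN2B at 3.77 ± 0.413 and CDKN1C at 1.43 ± 0.325 CPM per kb.

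**Figure D1:**
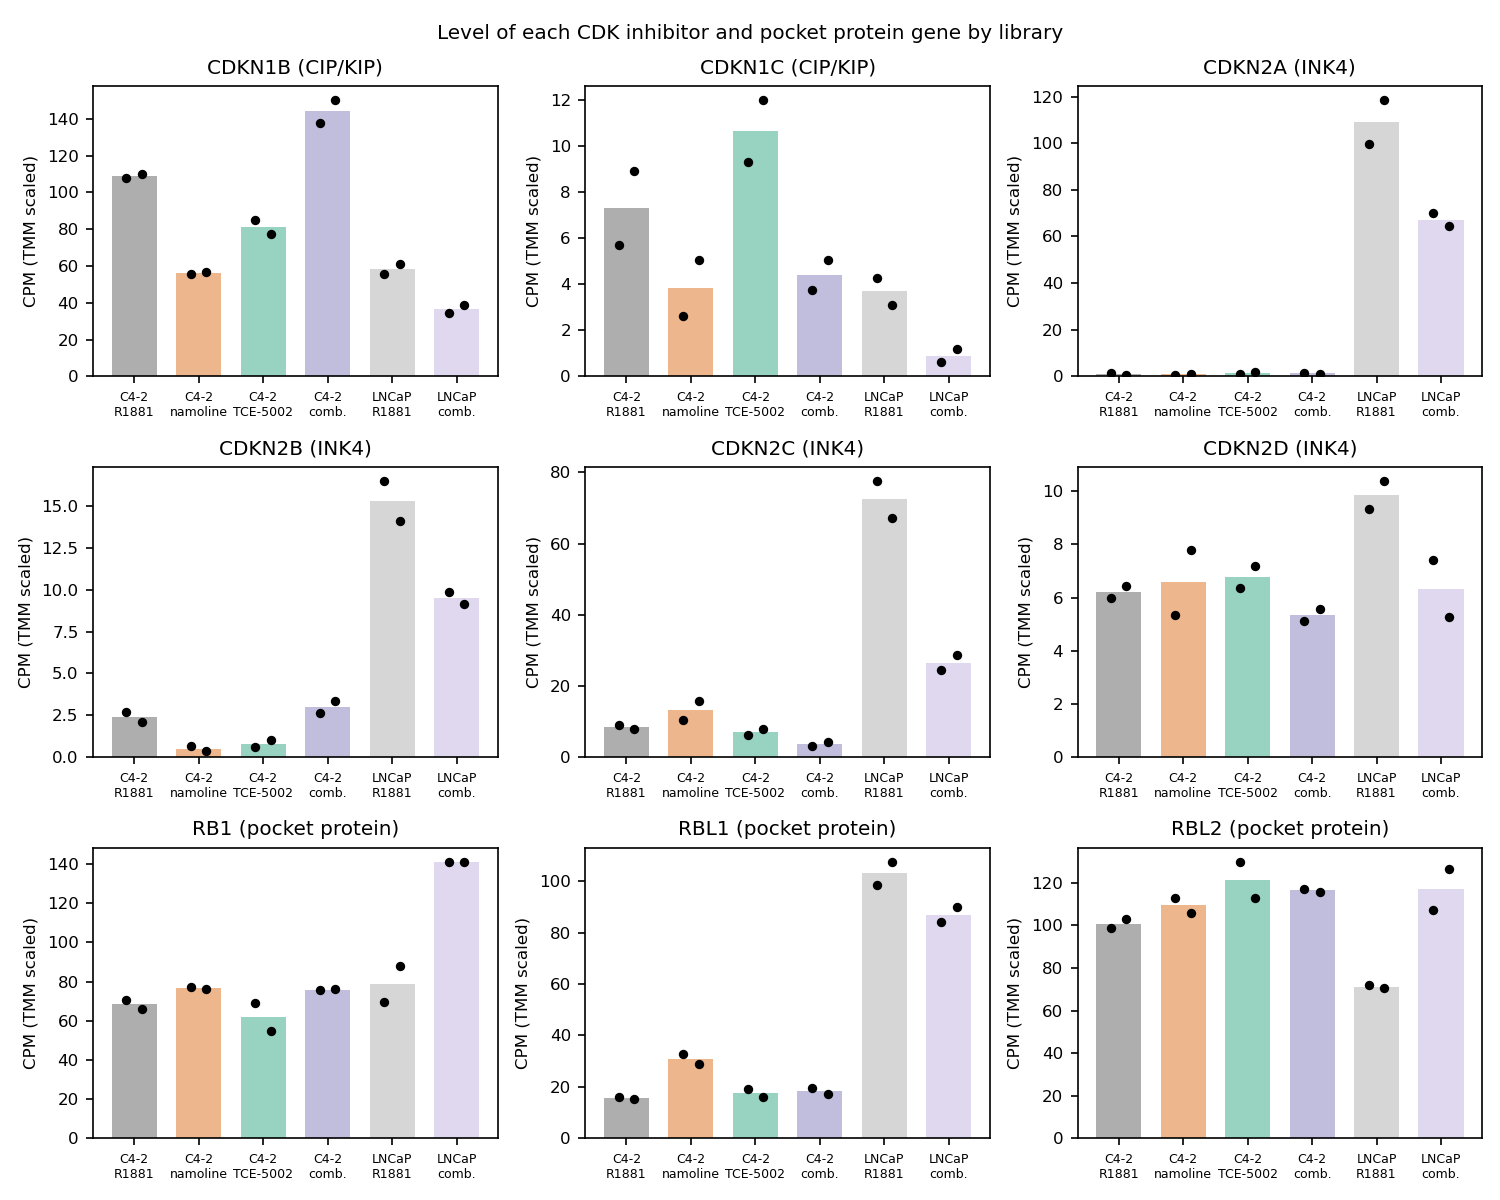
Level of each gene in CPM (vertical axes, linear from 0, TMM scaled) in the 6 groups, with 1 dot per library and a bar at the mean of 2. CDKN2A lies between 0.651 and 1.72 CPM in all 8 C4-2 libraries and between 64.6 and 119 CPM in the 4 libraries labelled LNCaP, and CDKN1B in C4-2 is lowest with namoline and highest with the combination.

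The first question was what namoline, TCE-5002 and their combination did to these genes in C4-2 cells. A gene passed at an adjusted p below 0.05 in edgeR's quasi-likelihood test, with Benjamini-Hochberg adjustment over all genes. With namoline, 5 of 9 genes passed, 2 higher and 3 lower, against 35.0% of 17702 genes tested, 18.7% higher and 16.3% lower. With TCE-5002, 2 of 9 passed, both lower, against 36.5% of genes, 19.9% higher and 16.7% lower. With the combination, 3 of 9 passed, 1 higher and 2 lower, against 50.3% of genes, 24.8% higher and 25.6% lower. The 3 comparisons share the R1881 libraries. The median log2 fold change (log2FC) of the 9 genes was 0.06, 0.13 and 0.18 in these comparisons, and that of all genes was -0.0043, -0.00014 and -0.034. At the study's threshold, which also asks for a 2-fold change, 1 of 9 genes passed in each, against 12.1%, 11.8% and 21.7% of all genes.

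CDKN1B, the gene of p27 (chromosome 12, 12715058 to 12722371, plus strand, GRCh38), moved in opposite directions with the single inhibitors and with the combination. It measured 108 and 110.0 CPM with R1881, 55.5 and 56.5 CPM with namoline, 85.0 and 77.5 CPM with TCE-5002, and 138 and 150.3 CPM with the combination. No groups overlapped, and the combination libraries were the highest of all. CDKN1B fell with namoline (log2FC -0.97 ± 0.11 SE, adjusted p = 1.12e-05) and with TCE-5002 (-0.42 ± 0.11, adjusted p = 0.00691), and rose with the combination (0.38 ± 0.11, adjusted p = 0.00882). Between the inhibitors it was lower with namoline than with TCE-5002 (-0.55 ± 0.11, adjusted p = 0.00329), so all neighbours in the order combination, R1881, TCE-5002, namoline differed. The TCE-5002 call was lost without C4-2 R1881 replicate 1 or 2 (adjusted p = 0.0684 each), and the combination call was lost without either of them (adjusted p = 0.0866 and 0.0757) or without combination replicate 2 (adjusted p = 0.120), while the log2FC stayed between 0.33 and 0.38. In bulk samples, fewer cells with a transcript and less of it per cell cannot be told apart.

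CDKN1C, the gene of p57 (chromosome 11, 2883213 to 2885881, minus strand), was low and varied more between replicates. Its levels were 5.72 and 8.91 CPM with R1881, 2.61 and 5.04 CPM with namoline, 9.33 and 12.01 CPM with TCE-5002, and 3.75 and 5.07 CPM with the combination, from 44 to 224 fragments per library. The namoline and combination libraries lay below all R1881 libraries, and the TCE-5002 libraries lay above them. CDKN1C fell with namoline (log2FC -0.93 ± 0.30, adjusted p = 0.0241) and with the combination (-0.74 ± 0.29, adjusted p = 0.0466), and its value with TCE-5002 was 0.56 ± 0.27 (adjusted p = 0.117). It was lower with namoline than with TCE-5002 (-1.50 ± 0.29, adjusted p = 0.00288) and lower with the combination than with TCE-5002 (-1.30 ± 0.28, adjusted p = 0.00130). The 2 calls against TCE-5002 held with each library left out, and those against R1881 did not. Without R1881 replicate 2 the namoline value was -0.60 (adjusted p = 0.215) and the combination value -0.42 (adjusted p = 0.344), without namoline replicate 1 the namoline value was -0.56 (adjusted p = 0.215), and the combination call was also lost without combination replicate 1 (-0.54, adjusted p = 0.260), without combination replicate 2 (-0.96, adjusted p = 0.0578) and with DESeq2 (adjusted p = 0.0595). Without TCE-5002 replicate 1 the TCE-5002 value was 0.74 and passed (adjusted p = 0.0286), as it did with no filter on low counts (adjusted p = 0.0492).

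The INK4 genes were few in transcripts in C4-2 and did not move together. CDKN2B, the gene of p15 (chromosome 9, 22002903 to 22009363, minus strand), measured 2.72 and 2.08 CPM with R1881, 0.651 and 0.360 CPM with namoline, 0.622 and 1.02 CPM with TCE-5002, and 2.61 and 3.38 CPM with the combination. Both single-inhibitor groups lay below every R1881 and combination library. CDKN2B fell with namoline (log2FC -2.26 ± 0.41, adjusted p = 0.000756) and with TCE-5002 (-1.56 ± 0.37, adjusted p = 0.00469), and the combination value was 0.28 ± 0.32 (adjusted p = 0.490). The counts behind these values were small, 6 to 58 fragments per library, and the TCE-5002 call was lost without R1881 replicate 1 (-1.33, adjusted p = 0.0683).

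CDKN2C, the gene of p18 (chromosome 1, 50960745 to 50974633, plus strand), fell with the combination. Its levels were 9.14 and 8.06 CPM with R1881, 10.6 and 15.8 CPM with namoline, 6.27 and 7.99 CPM with TCE-5002, and 3.30 and 4.20 CPM with the combination. The combination libraries were the lowest, and the 2 namoline libraries were the highest and the farthest apart. The combination value was -1.23 ± 0.24 (adjusted p = 0.000645) and the namoline value 0.60 ± 0.21 (adjusted p = 0.0415), which passed, while TCE-5002 gave -0.28 ± 0.22 (adjusted p = 0.354). The namoline call was lost without namoline replicate 2, where the value was 0.27 (adjusted p = 0.479), without R1881 replicate 1 (0.70, adjusted p = 0.0993) or 2 (0.51, adjusted p = 0.196), without combination replicate 1 (0.60, adjusted p = 0.0501) or 2 (0.58, adjusted p = 0.0583), with DESeq2 (adjusted p = 0.0709) and with a correction for GC content (0.39, adjusted p = 0.0780). With the GC correction the TCE-5002 value was -0.50 and passed (adjusted p = 0.0358).

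CDKN2D, the gene of p19 (chromosome 19, 10566462 to 10569059, minus strand), did not pass in any C4-2 comparison. It measured 5.999 and 6.44 CPM with R1881, 5.33 and 7.80 CPM with namoline, 6.38 and 7.19 CPM with TCE-5002, and 5.11 and 5.57 CPM with the combination. The intervals of 2 SE around its log2FC ran from -0.36 to 0.49 with namoline, from -0.29 to 0.55 with TCE-5002 and from -0.67 to 0.19 with the combination. Its promoter, printed above, holds an E2F match.

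CDKN2A (chromosome 9, 21967753 to 21995301, minus strand) is counted as 1 gene although it gives both p16INK4a and the p53 regulator p14ARF, so the counts do not separate them. In C4-2 it gave 32 and 11 fragments with R1881, 11 and 18 with namoline, 22 and 32 with TCE-5002, and 28 and 17 with the combination. At this depth a change could not be resolved, since the intervals of 2 SE ran from -1.37 to 0.53, from -0.55 to 1.19 and from -0.70 to 1.09 on the log2 scale. CDKN2B-AS1, the antisense RNA of this locus, shares 341 exon bases (7.9% of the CDKN2A exons) with it on the other strand and had 0 to 3 fragments per C4-2 library. The counting did not use strand, so fragments of the 2 genes cannot be told apart there and, by default, were not counted. MTAP, the neighbouring gene of methionine salvage, was read at 29.7 to 61.3 CPM in the same libraries.

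Among the pocket protein genes RB1 and RBL2 were steadier than RBL1. Their highest C4-2 group mean over the lowest was 1.24 and 1.21, against 1.95 for RBL1. RB1 (chromosome 13, 48303751 to 48481986, plus strand) measured 70.6 and 66.2 CPM with R1881, 77.2 and 76.0 CPM with namoline, 69.2 and 54.8 CPM with TCE-5002, and 75.6 and 76.1 CPM with the combination. It did not pass in any comparison within C4-2, with log2FC of 0.15 ± 0.12, -0.14 ± 0.12 and 0.12 ± 0.12. RB1 has few G and C bases (37.3% of its longest transcript), and with a correction for GC content the namoline value was 0.26 and passed (adjusted p = 0.00586). Without TCE-5002 replicate 1 the TCE-5002 value was -0.33 and passed (adjusted p = 0.0122).

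RBL1, the gene of p107 (chromosome 20, 36996349 to 37095995, minus strand), rose with namoline. It measured 16.2 and 15.4 CPM with R1881, 32.8 and 28.8 CPM with namoline, 19.3 and 16.1 CPM with TCE-5002, and 19.5 and 17.4 CPM with the combination. The namoline libraries stood apart above the other 6, which overlapped. The namoline value was 0.95 ± 0.15 (adjusted p = 0.000223), and RBL1 was also higher with namoline than with TCE-5002 (0.78 ± 0.15, adjusted p = 0.00248) and lower with the combination than with namoline (-0.75 ± 0.15, adjusted p = 0.000583). Against R1881 the TCE-5002 value was 0.17 ± 0.15 (adjusted p = 0.416) and the combination value 0.20 ± 0.15 (adjusted p = 0.290).

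RBL2, the gene of p130 (chromosome 16, 53433977 to 53491649, plus strand), measured 98.7 and 103 CPM with R1881, 113 and 106 CPM with namoline, 129.8 and 113 CPM with TCE-5002, and 117 and 116 CPM with the combination. All 6 treated libraries lay above both R1881 libraries, and none of the differences passed, with 0.11 ± 0.11 for namoline, 0.27 ± 0.11 for TCE-5002 (adjusted p = 0.0685) and 0.18 ± 0.11 for the combination (adjusted p = 0.179). With a correction for GC content the TCE-5002 value of 0.33 (adjusted p = 0.000877) and the combination value of 0.22 (adjusted p = 0.0115) passed. The combination value of RBL2 also passed without TCE-5002 replicate 1 (adjusted p = 0.0448) or 2 (adjusted p = 0.0490) and in a fit of only the 4 libraries compared (adjusted p = 0.0241). Without TCE-5002 replicate 2 the TCE-5002 value was 0.38 and passed (adjusted p = 0.00303). RBL2 shares 610 exon bases (8.3%) with AKTIP on the other strand, so fragments that touch exons of both were by default not counted.

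**Figure D2:**
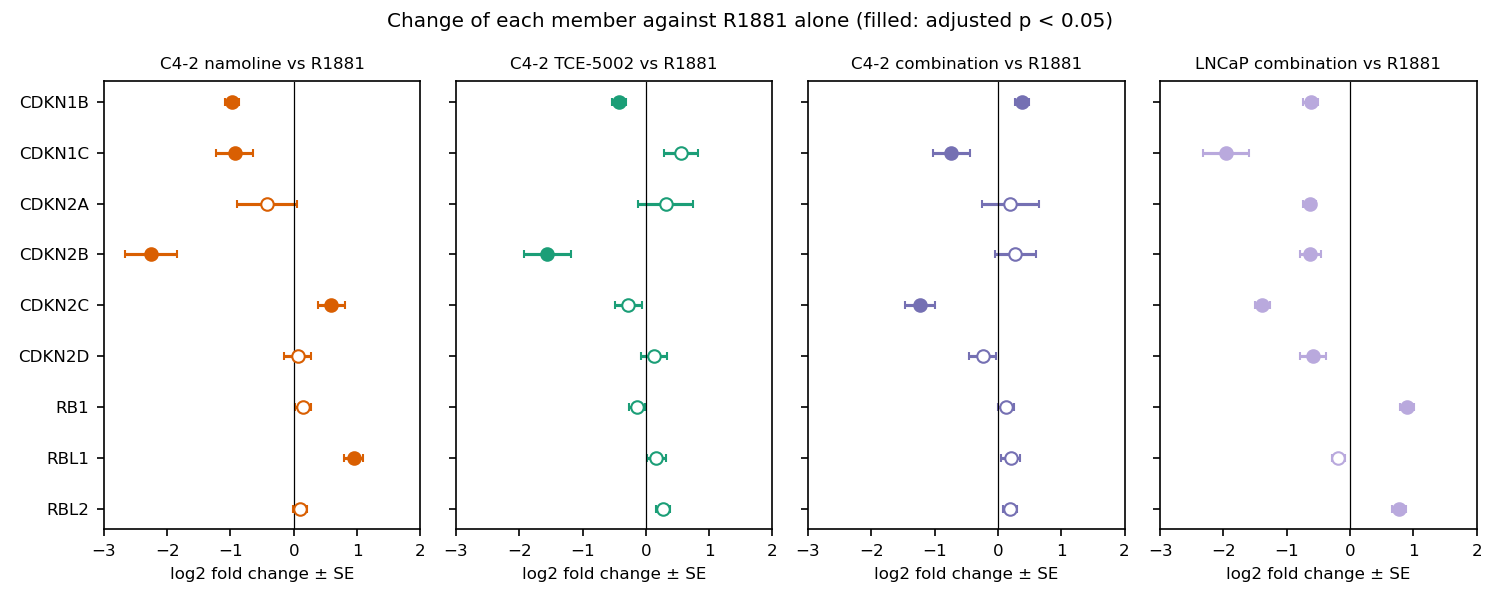
Log2FC of each gene against R1881 alone (horizontal axis) in 4 comparisons, with bars of 1 SE and filled symbols where the adjusted p was below 0.05. CDKN1B and CDKN2B lie left of 0 with either inhibitor in C4-2 and right of 0 with the combination, where only CDKN1B is filled.

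The balance of the pocket protein genes is given by ratios per kb. The RBL1 to RBL2 ratio was 0.201 and 0.184 in the C4-2 R1881 libraries, 0.357 and 0.334 with namoline, 0.183 and 0.176 with TCE-5002, and 0.205 and 0.185 with the combination. Of the summed pocket protein level, RBL1 made up 9.64% with R1881, 15.9% with namoline, 10.1% with TCE-5002 and 9.90% with the combination, and RB1 40.3%, 38.2%, 33.8% and 39.3%.

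**Figure D3:**
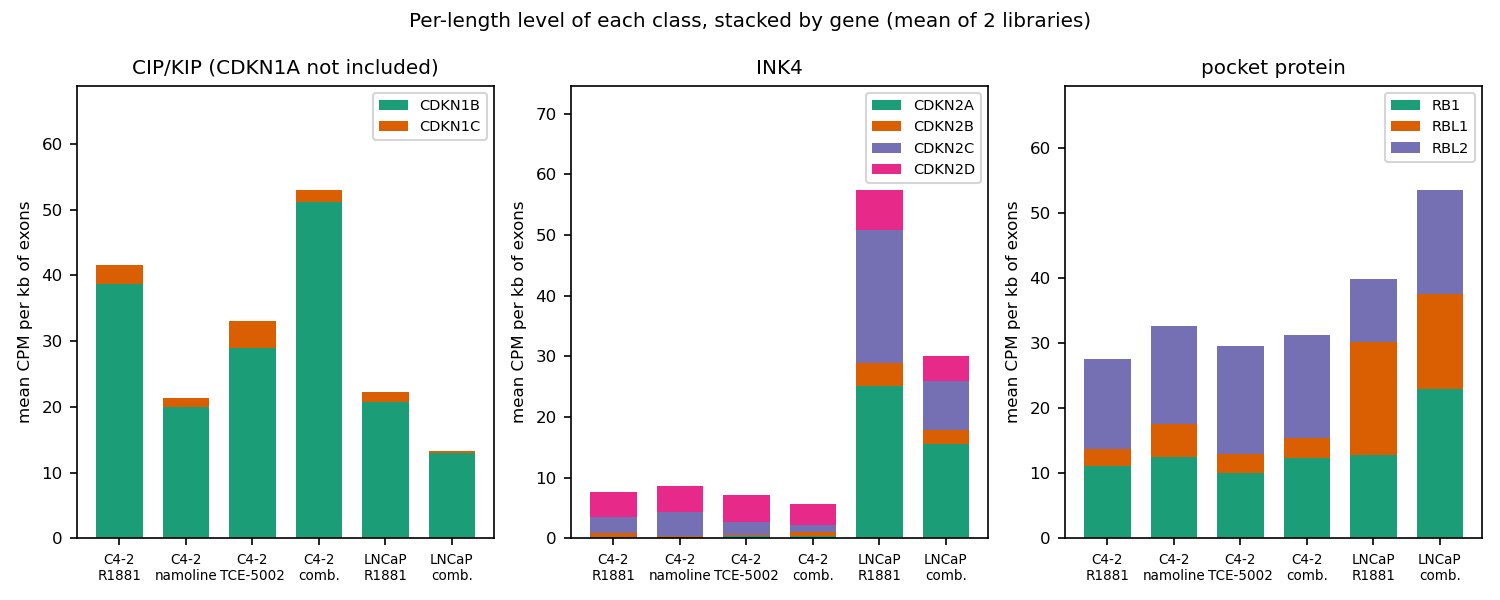
Mean CPM per kb of exons (vertical axes, linear from 0, mean of 2 libraries), stacked by gene within the CIP/KIP class without CDKN1A, the INK4 class and the pocket proteins. The INK4 stack is 7.58 CPM per kb in C4-2 with R1881 and 57.4 CPM per kb in the libraries labelled LNCaP with R1881. CDKN2A, counted together with p14ARF, makes up 3.35% and 43.9% of these stacks.

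The next question was whether the combination did what the 2 single effects add up to on the log2 scale. The interaction passed for 4 of 9 genes, 2 higher and 2 lower than the sum, against 53.5% of all genes, 25.6% higher and 27.9% lower, and 3 of these 4 were past 2-fold, against 35.3%. CDKN1B was 1.77 ± 0.15 above the sum of its single effects (adjusted p = 3.11e-07) and CDKN2B 4.09 ± 0.55 above it (adjusted p = 2.20e-05). For both, each inhibitor alone lowered the gene and the combination did not. CDKN2C was 1.55 below the sum (interaction -1.55 ± 0.32, adjusted p = 0.000910), as was RBL1 (-0.92 ± 0.21, adjusted p = 0.00206). The remaining values were -0.37 ± 0.41 for CDKN1C, 0.30 ± 0.64 for CDKN2A, -0.43 ± 0.30 for CDKN2D, 0.12 ± 0.17 for RB1 and -0.19 ± 0.16 for RBL2, which did not pass. Without TCE-5002 replicate 1 the RB1 interaction was 0.32 (adjusted p = 0.0367), and without TCE-5002 replicate 2 the RBL2 interaction was -0.31 (adjusted p = 0.0390), and with a correction for GC content it was -0.26 (adjusted p = 0.0330).

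Direct comparisons between the treated groups followed. Between the combination and namoline, 4 of 9 genes passed and 3 were past 2-fold, against 55.9% and 27.5% of all genes. CDKN1B (log2FC 1.35 ± 0.11, adjusted p = 1.70e-07) and CDKN2B (2.53 ± 0.41, adjusted p = 0.000103) were higher with the combination, and CDKN2C (-1.83 ± 0.23, adjusted p = 1.24e-05) and RBL1 were lower. Between the combination and TCE-5002, 4 of 9 passed (55.1% of all genes; 26.1% past 2-fold), with CDKN1B (0.80 ± 0.11) and CDKN2B (1.83 ± 0.37) higher and CDKN1C and CDKN2C (-0.96 ± 0.24) lower. Between namoline and TCE-5002, 4 of 9 passed (18.2% of all genes; 4.95% past 2-fold), with CDKN1B and CDKN1C lower and CDKN2C (0.87 ± 0.22) and RBL1 higher with namoline. The CDKN2C call was lost without namoline replicate 2 (0.54, adjusted p = 0.227). The TCE-5002 dose is uncertain, so this last comparison is of the treatments as given.

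**Figure D4:**
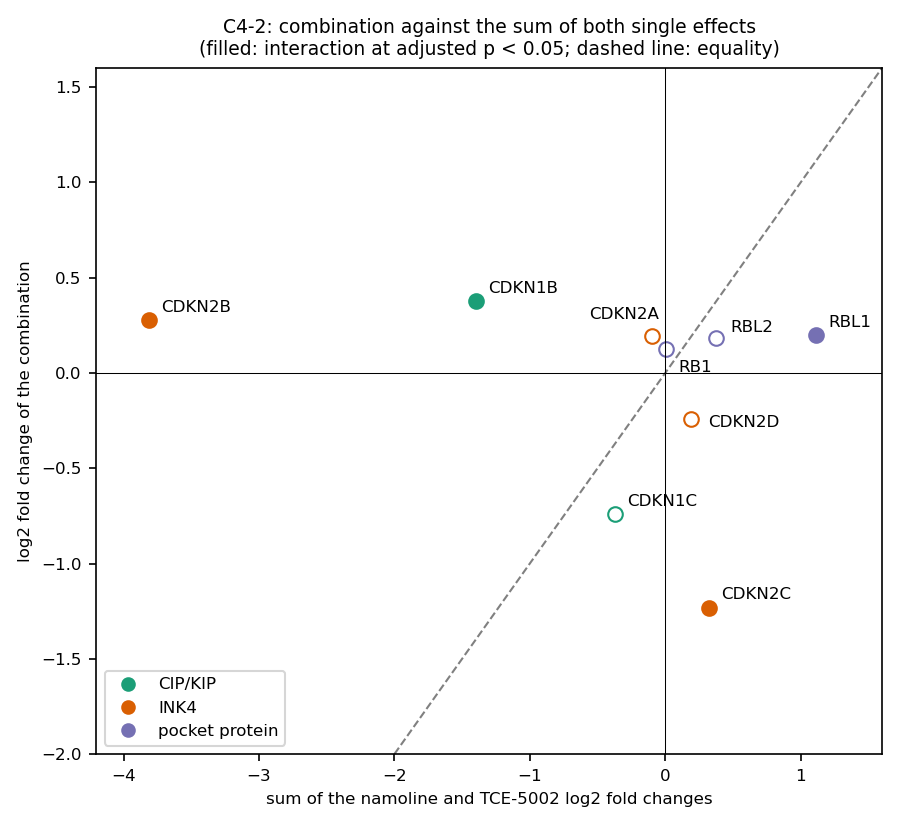
Log2FC of the combination in C4-2 (vertical axis) against the sum of the namoline and TCE-5002 log2FC (horizontal axis) for the 9 genes, coloured by class and filled where the interaction passed. CDKN2B and CDKN1B lie far above the dashed line of equality, and CDKN2C and RBL1 lie below it.

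The libraries labelled LNCaP held far more transcript of CDKN2A, CDKN2B and CDKN2C than C4-2 under R1881 alone. In that comparison 8 of 9 genes passed (76.8% of 19763 genes tested; 50.5% past 2-fold), all but RB1 (C4-2 against LNCaP -0.17 ± 0.10, adjusted p = 0.111). RB1 passed with RLE scaling (-0.23, adjusted p = 0.0397), with a correction for GC content (-0.21, adjusted p = 0.0256) and without LNCaP R1881 replicate 1 (-0.36, adjusted p = 0.00349). CDKN2A measured 99.5 and 119 CPM, CDKN2B 16.5 and 14.1 CPM, CDKN2C 77.6 and 67.3 CPM and RBL1 98.7 and 108 CPM in the libraries labelled LNCaP, and none of these overlapped with C4-2. The C4-2 values were lower by log2FC -6.51 ± 0.18 for CDKN2A, -2.62 ± 0.20 for CDKN2B, -3.04 ± 0.13 for CDKN2C, -2.67 ± 0.11 for RBL1 and -0.64 ± 0.18 for CDKN2D. CDKN1B (0.93 ± 0.09), CDKN1C (0.99 ± 0.25) and RBL2 (0.53 ± 0.09) were higher in C4-2. Of the summed pocket protein level per kb, RBL1 made up 43.5% and RBL2 24.5% in the libraries labelled LNCaP, against 9.64% and 50.05% in C4-2. CDKN2B-AS1 also differed, with 83 to 95 fragments per library labelled LNCaP and R1881 against 0 to 2 in C4-2, and MTAP stood at 84.4 and 92.9 CPM against 33.7 and 37.5 CPM. The mesenchymal and luminal marker sums given above moved with the same contrast, and their part in these differences was not tested. Under the combination 7 of 9 genes passed between the lines, all 7 past 2-fold, against 76.5% and 51.1% of all genes. CDKN1B and CDKN1C were higher in C4-2, and CDKN2A, CDKN2B, CDKN2C, RB1 and RBL1 were lower.

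In the libraries labelled LNCaP all 6 inhibitor genes passed as lower with the combination, CDKN2D the least securely, and RB1 and RBL2 passed as higher. There 8 of 9 genes passed, 2 higher and 6 lower, against 56.2% of 17565 genes tested, 28.0% higher and 28.2% lower, and 2 of 9 were past 2-fold, against 18.7%. The median log2FC of the 9 genes was -0.62 and that of all genes -0.0049. Without LNCaP combination replicate 1, the library with the differing header, 8 of 9 genes again passed.

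CDKN2C fell from 77.6 and 67.3 CPM to 24.4 and 28.8 CPM (log2FC -1.38 ± 0.12, adjusted p = 2.71e-11, and -1.28 without combination replicate 1). CDKN1C went from 4.28 and 3.10 CPM to 0.606 and 1.17 CPM (-1.96 ± 0.36, adjusted p = 2.61e-05, and -1.60 without that library), with 10 and 23 fragments in the treated libraries. CDKN1B fell from 55.8 and 61.2 CPM to 34.5 and 38.5 CPM (-0.62 ± 0.12, adjusted p = 3.12e-05, and -0.55 without it). In none of these genes did treated and control libraries overlap.

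The other INK4 genes fell by less. CDKN2A measured 69.8 and 64.6 CPM with the combination (-0.64 ± 0.11, adjusted p = 7.12e-06, and -0.70 without combination replicate 1), and CDKN2B 9.88 and 9.14 CPM (-0.63 ± 0.16, adjusted p = 0.00153, and -0.69 without it). CDKN2D went from 9.31 and 10.4 CPM to 7.40 and 5.28 CPM (-0.59 ± 0.20, adjusted p = 0.0125, and -0.84 without it). The CDKN2D call was lost without combination replicate 2 (-0.36, adjusted p = 0.168), without R1881 replicate 2 (-0.51, adjusted p = 0.0886), with DESeq2 (adjusted p = 0.0526) and with a correction for GC content (-0.20, adjusted p = 0.350). The summed INK4 level was 57.4 CPM per kb with R1881 and 30.1 CPM per kb with the combination. CDKN2A, whose counts include p14ARF, made up 43.9% and 51.6% of it.

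RB1 rose from 69.7 and 87.9 CPM to 141 CPM in both combination libraries (0.90 ± 0.11, adjusted p = 2.46e-08, and 0.89 without combination replicate 1). RBL2 rose from 72.1 and 70.4 CPM to 107 and 127 CPM (0.77 ± 0.11, adjusted p = 2.43e-07, and 0.88 without it). RBL1 measured 98.7 and 108 CPM with R1881 and 84.1 and 89.8 CPM with the combination (-0.19 ± 0.10, adjusted p = 0.127, and -0.14 without it), and with a correction for GC content it was -0.43 and passed (adjusted p = 0.000105). The RBL1 to RBL2 ratio per kb was 1.68 and 1.88 with R1881 and 0.966 and 0.873 with the combination.

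The combination effect was then compared between the lines by an interaction of line and treatment. The difference passed for 5 of 9 genes (47.6% of 19763 genes; 25.3% past 2-fold), with a median over all genes of -0.10. CDKN1B rose in C4-2 and fell in the libraries labelled LNCaP, a difference of 0.95 ± 0.13 (adjusted p = 1.62e-06, and 0.85 without LNCaP combination replicate 1). RB1 (-0.83 ± 0.14, adjusted p = 2.65e-05, and -0.84 without it) and RBL2 (-0.64 ± 0.13, adjusted p = 0.000191, and -0.77 without it) had lower values in C4-2, where neither passed, than in the libraries labelled LNCaP, where both rose. CDKN2B differed by 0.84 ± 0.30 (adjusted p = 0.0228, and 0.88 without it), a call lost without C4-2 R1881 replicate 2 (0.67, adjusted p = 0.103) or C4-2 combination replicate 2 (0.66, adjusted p = 0.144). CDKN1C differed by 1.17 ± 0.44 (adjusted p = 0.0333), a call lost without LNCaP combination replicate 1 (0.79, adjusted p = 0.148), LNCaP R1881 replicate 1 (1.02, adjusted p = 0.0923), C4-2 R1881 replicate 1 (0.87, adjusted p = 0.130) or C4-2 combination replicate 2 (0.95, adjusted p = 0.116), with DESeq2 (adjusted p = 0.0508) and with a correction for GC content (0.67, adjusted p = 0.209).

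CDKN2C, which fell in both lines, gave a difference of 0.09 ± 0.22 (adjusted p = 0.768), with an interval of 2 SE from -0.35 to 0.54, and was -0.038 without LNCaP combination replicate 1. The values for CDKN2A (0.76 ± 0.37, adjusted p = 0.0930), CDKN2D (0.30 ± 0.27, adjusted p = 0.394) and RBL1 (0.33 ± 0.15, adjusted p = 0.0670) did not pass either. CDKN2A passed without C4-2 R1881 replicate 1 (1.47, adjusted p = 0.0136) or LNCaP R1881 replicate 1 (0.99, adjusted p = 0.0312) and with DESeq2 (0.83, adjusted p = 0.0492), and RBL1 passed with RLE scaling (0.40, adjusted p = 0.0303), with a correction for GC content (0.63, adjusted p = 0.000146), without LNCaP R1881 replicate 1 (0.50, adjusted p = 0.0161) and without LNCaP combination replicate 2 (0.38, adjusted p = 0.0444).

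The genes on which these brakes act were read from 5 lists named after their roles. All 15 E2F targets, genes of origin licensing and nucleotide synthesis, rose with namoline (median log2FC 1.99, against 18.7% of all genes called higher), and 13 of 15 rose with TCE-5002 (median 0.96, against 19.9%). With the combination 7 rose and 2 fell (median 0.15, against 24.8% and 25.6%), and in the libraries labelled LNCaP 9 rose and 3 fell (median 0.31, against 28.0% and 28.2%). Their mean log2 CPM was 4.49 and 4.41 in the C4-2 R1881 libraries, 6.29 and 6.67 with namoline, 5.40 and 5.40 with TCE-5002, and 4.81 and 4.48 with the combination. In these libraries the mean level of RBL1, itself an E2F-driven gene, was also highest with namoline, as were those of CDKN2C and RB1. The RB1 libraries with namoline (77.2 and 76.0 CPM) overlapped those with the combination (75.6 and 76.1 CPM), and RB1 did not pass. The means of CDKN1B, CDKN1C, CDKN2A and CDKN2B were lowest with namoline. Whether E2F activity set these levels was not tested. CDC45, part of the replicative helicase, went from 3.94 and 4.94 CPM to 30.7 and 41.4 CPM with namoline (log2FC 3.02 ± 0.27) and to 15.7 and 19.9 CPM with TCE-5002 (2.02 ± 0.27). ORC1 of the origin recognition complex rose with namoline (3.003 ± 0.28) and MCM3 of the helicase with TCE-5002 (1.40 ± 0.16). With the combination the licensing factor CDC6 (1.11 ± 0.17) and MCM7 (0.91 ± 0.13) rose, and the nucleotide synthesis gene TK1 fell (-1.46 ± 0.20). Without combination replicate 1, 4 rather than 7 of the 15 passed as higher with the combination.

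**Figure D5:**
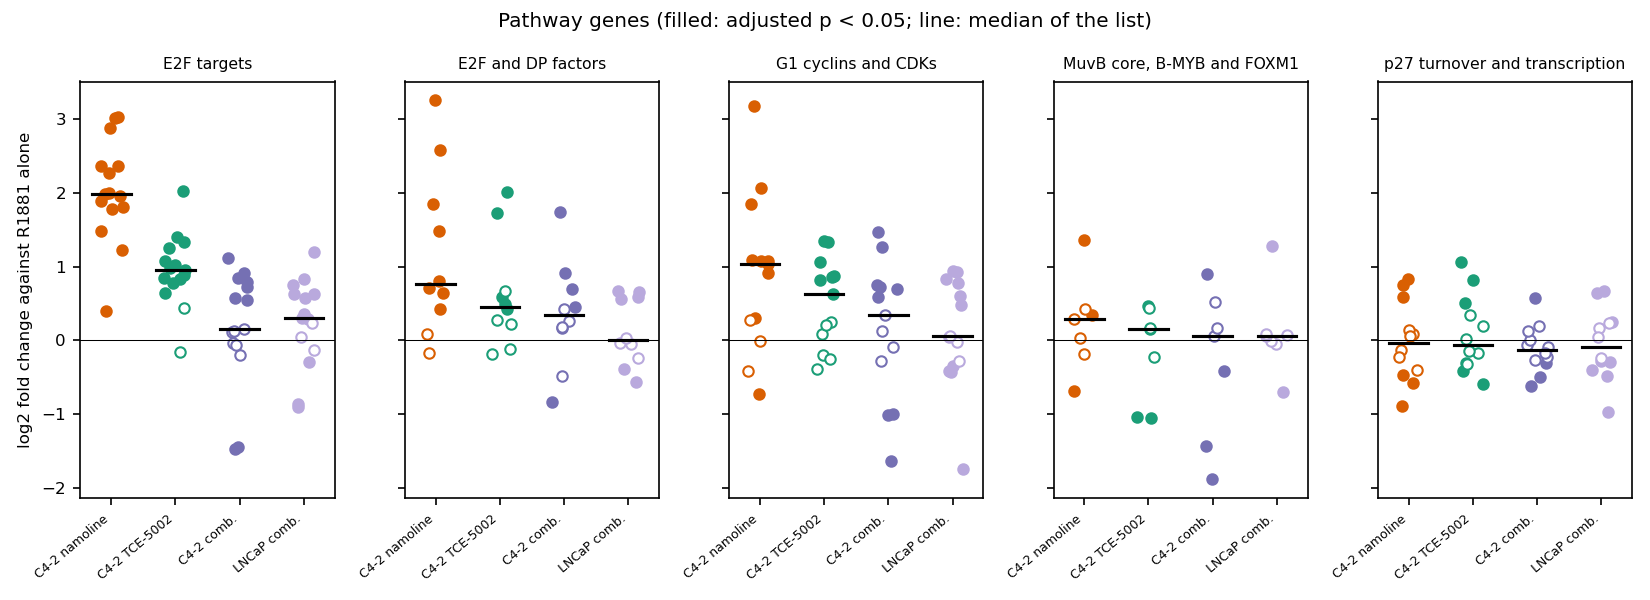
Log2FC against R1881 alone (vertical axis) of the genes of 5 lists in 4 comparisons, with 1 symbol per gene, filled where the adjusted p was below 0.05, and a line at the median. All 15 E2F targets lie above 0 with namoline, with a median of 1.99, and their median is 0.15 with the combination.

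Of 10 E2F and DP factors, 8 rose with namoline (18.7% of all genes) and 5 with TCE-5002 (19.9%) with none lower, 4 rose and 1 fell with the combination (24.8% and 25.6%), and 4 rose and 2 fell in the libraries labelled LNCaP (28.0% and 28.2%). The activators E2F2 and E2F1 led with namoline (3.25 ± 0.23 and 2.58 ± 0.19) and with TCE-5002 (2.01 ± 0.24 and 1.73 ± 0.19). With the combination the repressor E2F7 (1.74 ± 0.17) and the pocket protein partner E2F4 (0.91 ± 0.12) were highest, and the partner subunit TFDP1 fell (-0.82 ± 0.12). In the libraries labelled LNCaP E2F7 (-0.56 ± 0.10) and E2F4 (-0.38 ± 0.10) fell, and the E2F4 call was lost with a correction for GC content (-0.08, adjusted p = 0.412). The count of factors higher with the combination was 2 without either R1881 or either combination replicate and 7 with the GC correction, and that with TCE-5002 was 2 without R1881 replicate 1 and 3 in a fit of only the 4 libraries compared. Without TCE-5002 replicate 1, 1 factor was lower with TCE-5002.

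The list of G1 cyclins and CDKs also held CDK1, CCNA2, CCNH, CDK7, MNAT1 and CDC25A, so its counts are not of G1 cyclins and CDKs alone. Of its genes, 13 of 14 were tested in C4-2. With namoline 9 rose and 1 fell (18.7% and 16.3% of all genes), 7 rose with TCE-5002 with none lower (19.9% and 16.7%), and 6 rose and 3 fell with the combination (24.8% and 25.6%), while 6 rose and 4 fell of 14 in the libraries labelled LNCaP (28.0% and 28.2%). Without TCE-5002 replicate 1, 3 were lower with TCE-5002. CCNE2 (cyclin E2) went from 2.53 and 2.02 CPM to 20.6 and 21.4 CPM with namoline (3.17 ± 0.22) and to 7.44 and 5.51 CPM with the combination (1.47 ± 0.23). CDC25A, the phosphatase that activates CDK2, rose with namoline (2.06 ± 0.20) and less with the combination (1.26 ± 0.20). CDK6, a target of the INK4 proteins, fell from 9.70 and 9.30 CPM to 3.18 and 3.07 CPM with the combination (-1.63 ± 0.21) and to 6.16 and 5.46 CPM with namoline (-0.72 ± 0.19), and the namoline call was lost without R1881 replicate 1 (adjusted p = 0.0780) or namoline replicate 2 (adjusted p = 0.0869). In the libraries labelled LNCaP CCNE1 fell from 36.6 and 30.1 CPM to 8.12 and 10.9 CPM (-1.74 ± 0.15). There 2 rather than 4 genes were lower without R1881 replicate 1.

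Of 7 genes of the MuvB core with MYBL2 and FOXM1, 2 rose and 1 fell with namoline (18.7% and 16.3% of all genes), 1 rose and 2 fell with TCE-5002 (19.9% and 16.7%), 1 rose and 3 fell with the combination (24.8% and 25.6%), and 1 rose and 1 fell in the libraries labelled LNCaP (28.0% and 28.2%). MYBL2 (B-MYB) rose with namoline (1.36 ± 0.20) and fell with the combination (-1.42 ± 0.22). FOXM1, the factor of mitotic genes, fell with TCE-5002 (-1.03 ± 0.18), with the combination (-1.87 ± 0.19) and in the libraries labelled LNCaP (-0.70 ± 0.10). The MuvB subunit LIN52 rose with the combination by 0.89 ± 0.16 in C4-2 and by 1.27 ± 0.11 in the libraries labelled LNCaP. With 1 library left out, the count of higher genes was 1 to 3 with namoline, 0 to 2 with TCE-5002 and 1 to 2 with the combination.

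Of 12 genes of p27 turnover and transcription, 3 rose and 3 fell with either inhibitor alone (18.7% and 16.3% of all genes with namoline, 19.9% and 16.7% with TCE-5002), 1 rose and 3 fell with the combination (24.8% and 25.6%), and 3 rose and 5 fell in the libraries labelled LNCaP (28.0% and 28.2%). SKP2, the ligase subunit that marks p27 for degradation, rose with namoline from 31.3 and 31.9 CPM to 52.5 and 61.1 CPM (0.83 ± 0.13). FOXO4, of the factor family that activates CDKN1B, fell with namoline (-0.89 ± 0.14) and with the combination (-0.61 ± 0.14). CDKN1B itself fell with namoline and rose with the combination, and a link between the 2 genes was not tested. AKT1, a kinase that acts against FOXO and p27, rose with namoline (0.75 ± 0.13) and with TCE-5002 (0.82 ± 0.13) and fell in the libraries labelled LNCaP (-0.97 ± 0.11). COPS5, which binds p27 and moves it out of the nucleus, rose with the combination by 0.57 ± 0.13 in C4-2 and by 0.67 ± 0.11 in the libraries labelled LNCaP. With namoline the count of lower genes was 5 without TCE-5002 replicate 1 or 2. With the combination 2 rather than 1 were higher without either of these. With TCE-5002 the count of lower genes was 0 without R1881 replicate 1 and 1 without R1881 replicate 2, and in the libraries labelled LNCaP it was 3 and 2 without R1881 replicate 1 and 2. Without LNCaP combination replicate 1, the library with the differing header, the counts higher and lower in those libraries were 8 and 4 for E2F targets, 4 and 3 for E2F and DP factors, 6 and 5 for G1 cyclins and CDKs, 1 and 1 for the MuvB list and 3 and 4 for p27 turnover.

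Genes whose log2 CPM followed a member most closely were sought among 10504 protein-coding genes over the 8 C4-2 libraries, which share library, depth and treatment group, so that r mostly orders the 4 group means. For CDKN1B the nearest was MARS1, methionyl-tRNA synthetase (r = 0.996), followed by SPIRE1 (0.994) and the clock gene BMAL1 (0.991). For CDKN2C these were POC1A (0.989), PYM1 (0.987) and WBP1L (0.981), and for RBL1 CSTF2T (0.993) and SLC16A6 (0.986). CDKN1C lay nearest WBP1 (0.974), RB1 nearest MSANTD4 (0.989), RBL2 nearest GINM1 (0.978) and CDKN2D nearest SYNGR3 (0.924). CDKN2A and CDKN2B were under 5 CPM in C4-2 and were left out.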

How the data were processed

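Polyadenylated RNA of 12 samples was sequenced in paired ends, and reads were filtered by base quality, trimmed with Trim Galore and aligned with STAR by the authors. The authors deposited raw counts of fragments per gene, which the headers say were made with featureCounts 1.5.0-p1 and the Ensembl 83 annotation of GRCh38. The strand was not used, and fragments overlapping several genes or aligning to several places were by default left out. Each file holds 1 library, and groups were taken from the library titles, since a treatment protocol in the labels describes siRNA work that does not match these groups.

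The members and the lists were chosen with earlier results of these data known. They are the 9 genes, the genes sharing their exons, MTAP and CDKN2B-AS1, 5 pathway lists of which the 2 highest and 2 lowest passing genes of each comparison could be named, 5 marker lists, and the 3 genes most like each member of at least 5 CPM. Some genes that these rules name are not reported here. Symbols were matched for 56558 of 60675 genes.

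Counts were filtered with filterByExpr, scaled by TMM and tested by the quasi-likelihood F test of edgeR 4.0.16 in R 4.3.3, and p-values were adjusted by Benjamini-Hochberg over every gene fitted. The 8 C4-2 libraries, the 4 libraries labelled LNCaP, and the 8 R1881 and combination libraries of both lines were each fitted once. Levels are CPM with TMM factors over all 12 libraries, divided by exon length where genes are compared. Replicates of a group differed by 3.61 to 9.76 in chi-square per gene, and the C4-2 TCE-5002 pair by 27.9, so none was a repeat of another. The fit was tested on simulated counts with known changes. Alternatives were DESeq2 1.42.0, the likelihood ratio test, RLE scaling, the unfiltered table, a replicate block, an offset for GC content, both together, each library left out, the 2-fold threshold and a fit of only the 4 libraries compared. Promoter sequences came from RefSeq tables.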

Additional observations from a re-analysis of the deposited data

Results flagged for a closer look

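In 5 genes the effect of the combination differed between C4-2 and the libraries labelled LNCaP in a test of the difference itself, edgeR's quasi-likelihood test of the interaction of line and treatment, adjusted over all genes, of which 47.6% were called. The effect in C4-2 minus that in the libraries labelled LNCaP was 0.95 on the log2 scale for CDKN1B, 1.17 for CDKN1C, 0.84 for CDKN2B, -0.83 for RB1 and -0.64 for RBL2. CDKN1B rose in both C4-2 combination libraries and was below both controls in both LNCaP combination libraries. CDKN1C was below its controls in both lines, and its call was lost when any of 4 libraries was left out, with DESeq2 and with a correction for GC content. The CDKN2B call was lost without C4-2 R1881 replicate 2 or C4-2 combination replicate 2. CDKN2B was 2.61 and 3.38 CPM against 2.72 and 2.08 CPM in C4-2, and 9.88 and 9.14 CPM against 16.5 and 14.1 CPM in the libraries labelled LNCaP. RB1 and RBL2 were above their controls in both LNCaP combination libraries. Line and batch cannot be told apart, and the part of the marker differences between the lines was not tested.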

How the results depend on the processing

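Over 82 results on single members, 1133 of 1233 alternative values kept their direction and their side of the threshold, 35 lost the call, 35 gained it and 30 changed sign, all of the last among values that passed neither as reported nor under the alternative. For the pathway genes named by rule, 881 of 902 values were kept and 21 lost the call. Depth limits the calls in CDKN2A (11 to 32 fragments per C4-2 library) and CDKN2B (6 to 58).

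With the 2-fold threshold, 1 member passed with namoline, TCE-5002 or the combination in C4-2 and in the comparison of namoline with TCE-5002, 2 passed between the combination and TCE-5002 in C4-2, 2 in the libraries labelled LNCaP, 1 passed in the difference between lines and 4 between the lines under R1881. Leaving out 1 library gave 3 to 5 members with namoline, 0 to 4 with TCE-5002 (0 without C4-2 R1881 replicate 1, 4 without TCE-5002 replicate 1), 1 to 4 with the combination and 3 to 6 in the difference between lines. Over all genes, 6195 were called with namoline against 3270 without R1881 replicate 1 and 3338 without namoline replicate 2, 6464 with TCE-5002 against 3397 and 4213 without R1881 replicate 1 and 2, and 3215 between namoline and TCE-5002 against 5837 with the GC correction, 5956 with that and the block, 1662 in a fit of only the 4 libraries compared, and 992 to 5292 with 1 library left out. Plain CPM moved the median level of the 9 genes to 9.44 CPM in C4-2 with R1881, 5.01 CPM in C4-2 with the combination and 73.8 CPM in the libraries labelled LNCaP with R1881.

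Samples with the same replicate number did not deviate together throughout (correlations of -0.04 to 0.44 between C4-2 groups and 0.01 in the libraries labelled LNCaP), so the numbers were not taken as pairs. With the replicate block 4 members passed with TCE-5002 rather than 2, with CDKN1C (0.57, adjusted p = 0.0190) and RBL2 (0.27, adjusted p = 0.0387) added, and 4 also passed with the GC correction and with the GC correction and block together. Calls rose over all 17702 genes as well, from 6464 to 7385 with the block, 8173 with the GC correction and 8290 with both.

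Signs changed as follows. With the GC correction, alone and with the block, CDKN2D was -0.20 and -0.20 with namoline and -0.16 and -0.16 with TCE-5002, the interaction was 0.28 and 0.29 for CDKN1C, 0.077 and 0.081 for CDKN2D and -0.11 and -0.11 for RB1, and the difference between lines was -0.18 and -0.18 for CDKN2C and -0.084 and -0.084 for CDKN2D. CDKN2A with TCE-5002 was -0.0072 with the GC correction alone. Leaving out 1 library moved CDKN2A between -0.83 and 0.27 with namoline, -0.075 and 1.00 with TCE-5002, -0.20 and 0.87 with the combination and -0.40 and 0.71 in the interaction, CDKN2D between -0.25 and 0.29 with namoline, RB1 between -0.33 and 0.026 with TCE-5002 and -0.059 and 0.32 in the interaction, CDKN1C between -0.76 and 0.18 in the interaction, and CDKN2C between -0.073 and 0.30 in the difference between lines. The cause of these changes was not tested.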
